A study of Mus musculus with 12 samples.

Results

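The 36 genes described here are interferon-stimulated genes and genes of antigen processing, chosen by name as known members of the type I and type II interferon response, and all 36 are among the 24062 gene symbols counted in this experiment. By role they comprise 5 transcription factors (Stat2, Irf1, Irf7, Irf8, Irf9), 4 sensors of RNA or DNA (Ifih1, Ddx58, Dhx58, Zbp1), 19 antiviral effectors and their regulators, 4 GTPases (Gbp2, Gbp3, Igtp, Irgm1), 3 genes of class I antigen processing (Tap1, Tap2, B2m) and the chemokine Cxcl10. They were followed in RNA-seq libraries of 12 mice, 1 library per mouse, which addressed what dietary removal of tryptophan (Trp) does to MYC-driven liver tumors.

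Livers of 6 male MYC-ON mice were used. These mice carry LAP-tTA and TRE-MYC on the FVB strain, so the LAP promoter directs the tetracycline transactivator to hepatocytes and MYC is switched on there when doxycycline is withdrawn at birth. The control diet went to mice 101, 102 and 103. A diet without tryptophan, No-Trp, went to mice 105, 107 and 108, for 21 days in either case. The other 6 libraries are HCC53N tumors, grown from a line of mouse liver tumor cells with a p53 knockout and mutant NRAS that the labels also class as MYC ON on FVB, in hosts labelled NOD-SKID (NOD SCID, whose sex the labels do not give). Control xenografts 40, 41 and 43 and No-Trp xenografts 35, 36 and 37 had the same diets for 21 days. All xenografts come from a single cell line, were placed under the skin, and grew in hosts without functional T and B cells, whereas the MYC-ON livers sit in immunocompetent mice. Strain of the host, site, tumor cells and immune competence therefore differ together between the models and cannot be told apart. The study's methods name female hosts for xenografts, with repeats in males. Sex may therefore differ between the models too, and cannot be told apart from the rest. The labels give an age only for a comparison with wild-type males that is not analysed here.

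Interferons bind their receptors on the cell surface and signal through JAK kinases to STAT transcription factors. Type I and type III interferons assemble a complex with STAT2 and IRF9 that binds interferon-stimulated response elements (ISRE), and type II interferon (IFN-γ) yields STAT dimers that bind gamma-activated sites (GAS). The genes switched on in this way act against viral RNA, attach a ubiquitin-like tag to proteins, feed peptides onto MHC class I and draw in lymphocytes. In the liver they are made by hepatocytes, Kupffer cells, endothelium and other immune cells alike.

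Reads counted on genes ranged from 14660963 to 26085349 per library, and 24.7% to 39.4% of the reads of a library were not assigned to a gene. The transcript of Rn45s, a ribosomal RNA precursor, took 12.1% of the counts of liver 101 and 2.22% of those of liver 102. Libraries of livers 101 and 108 and of control xenografts 41 and 43 carry a mark of resubmission. Albumin RNA, which defines hepatocytes, was at 4534 to 87845 CPM (counts per 1000000 reads on genes, scaled with TMM factors) in the livers and at 74.9 to 343 CPM in the xenografts. Other hepatocyte markers were nearer, with Hnf4a at 468 to 1166 CPM and 150.2 to 319 CPM and Trf at 3418 to 15212 CPM and 472 to 1500 CPM. All 36 genes passed the filter on low counts in every comparison, and the lowest count of any of them was 15 reads, for Ifit1 and for Oas3 in liver 107.

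Promoters are shown first, since they hold the elements that interferon signals act on. The RefSeq promoter table (GRCm38.p6, from 250 bases before to 50 bases after a start) holds 27 of the 36. The letters GAAANNGAAA, the core of an ISRE, were searched on both strands. They occur in the windows of 16 of these 27 genes (59.3%), against 3.99% of 27025 genes in the table and 3.44% of its 32851 windows. The letters TTCNNNGAA of a GAS read the same on either strand and occur in 7 of the 27 (25.9%), against 9.55% of all genes and 8.3% of all windows. The sequences are the bases ahead of the start, 5′ to 3′ on the strand of the gene, for genes that the diet or the model comparisons turn on, with both kinds of match in capitals. B2m, Stat2 and Oas3 are the genes past an adjusted p in the livers, Bst2 and Igtp are below every liver library in all xenografts, and Irf1 and Oasl1 are above.
B2m (chr2:122147537-122147686, + strand): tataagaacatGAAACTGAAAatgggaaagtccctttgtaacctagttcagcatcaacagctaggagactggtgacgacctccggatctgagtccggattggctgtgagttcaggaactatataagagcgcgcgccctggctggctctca
Stat2 (chr10:128270248-128270497, + strand): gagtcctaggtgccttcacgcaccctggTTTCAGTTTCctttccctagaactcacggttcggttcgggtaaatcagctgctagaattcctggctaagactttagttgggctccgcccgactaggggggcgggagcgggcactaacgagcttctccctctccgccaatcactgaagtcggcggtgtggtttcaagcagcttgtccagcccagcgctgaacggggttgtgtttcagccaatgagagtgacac
Oas3 (chr5:120777660-120777809, - strand): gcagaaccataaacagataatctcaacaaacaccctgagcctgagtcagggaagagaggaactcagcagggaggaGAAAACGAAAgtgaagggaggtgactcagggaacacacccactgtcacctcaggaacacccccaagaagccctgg
Bst2 (chr8:71537473-71537622, - strand): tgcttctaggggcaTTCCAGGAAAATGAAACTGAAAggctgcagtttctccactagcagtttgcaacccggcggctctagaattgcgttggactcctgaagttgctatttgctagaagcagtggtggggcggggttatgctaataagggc
Igtp (chr11:58199406-58199555, + strand): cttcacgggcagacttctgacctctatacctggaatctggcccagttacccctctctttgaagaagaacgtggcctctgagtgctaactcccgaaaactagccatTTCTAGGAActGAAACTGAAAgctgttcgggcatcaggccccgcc
Irf1 (chr11:53769864-53770013, + strand): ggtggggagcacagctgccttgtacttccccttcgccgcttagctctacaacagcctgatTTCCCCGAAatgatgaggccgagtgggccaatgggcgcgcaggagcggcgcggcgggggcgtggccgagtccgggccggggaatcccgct
Oasl1 (chr5:114923090-114923239, + strand): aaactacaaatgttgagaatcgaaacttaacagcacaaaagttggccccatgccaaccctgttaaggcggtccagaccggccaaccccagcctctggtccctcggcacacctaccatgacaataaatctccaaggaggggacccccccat

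B2m held its ISRE letters from 139 to 130 bases ahead of the start, Oas3 from 75 to 66 and Stat2, on the other strand, from 222 to 213. In Bst2 a GAS match and a pair of ISRE matches overlap in 1 run, and in Igtp 2 bases lie between the GAS match and the ISRE match. Irf1 held GAS letters only and Oasl1 neither. Both directions of change described below therefore occur among genes with the ISRE letters. Several of the 36 also lie beside each other in the genome (GENCODE M21, GRCm38): Ifit1, Ifit2 and Ifit3 on chromosome 19, Oas1a, Oas2 and Oas3 and, apart from them, Oasl1 and Oasl2 on chromosome 5, Mx1 and Mx2 on chromosome 16, and Tap1 and Tap2 within the major histocompatibility complex of chromosome 17.

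Between the diets, few of the 36 genes changed. A gene was called when its adjusted p was at most 0.05 and its log2 fold change at least 1 in size, in edgeR's quasi-likelihood test with Benjamini-Hochberg adjustment over all genes tested, which is the source of every adjusted p given here. In the MYC-ON livers B2m rose and Oas3 fell on the No-Trp diet. That is 1 of 36 higher, where 9.28% of all genes tested were called higher, and 1 of 36 lower, where 7.27% were. On the adjusted p alone 3 of the 36 passed (Stat2, Oas3 and B2m), against 25.3% of all genes. The groups of livers did not overlap for 3 of the 36, with Stat2 and B2m above and Bst2 below, against 48.7% of all genes. The median log2 fold change was -0.11 for the 36 genes, 15 of them positive, and -0.00 for all genes.

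None of the 36 genes was called between the diets in the xenografts. The background there is low as well, with 0.36% of all genes called. At an unadjusted p of 0.05, 7 of the 36 passed in edgeR (Isg15, Oasl2, Mx2, Bst2, Xaf1, Tap1 and Tap2), against 16.9% of all genes, and DESeq2 also called none while giving 8 such genes, 1 of which (Xaf1) passed on the adjusted p. Libraries of the diets did not overlap for 5 of the 36, against 22.4% of all genes, with Tap1 and Tap2 above and Irf1, Mx2 and Xaf1 below on the No-Trp diet. The median log2 fold change was -0.21, with 28 of the 36 negative, against -0.00 for all genes.

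The difference between the diet effects of the models was tested itself, as the interaction in a model of all 12 libraries together, given as the effect in xenografts minus that in livers. It called none of the 36 genes, against 12.7% of all genes. At an unadjusted p of 0.05, 4 passed (Stat2, Oas3, Mx2 and B2m), against 32.2% of all genes. DESeq2 called 1 higher, Oas3 at 2.53 (adjusted p = 0.0227 in DESeq2), and 1 lower, B2m at -1.63 (adjusted p = 0.0117 in DESeq2). The median was -0.07 for the 36 genes and 0.03 for all genes.

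**Figure D1:**
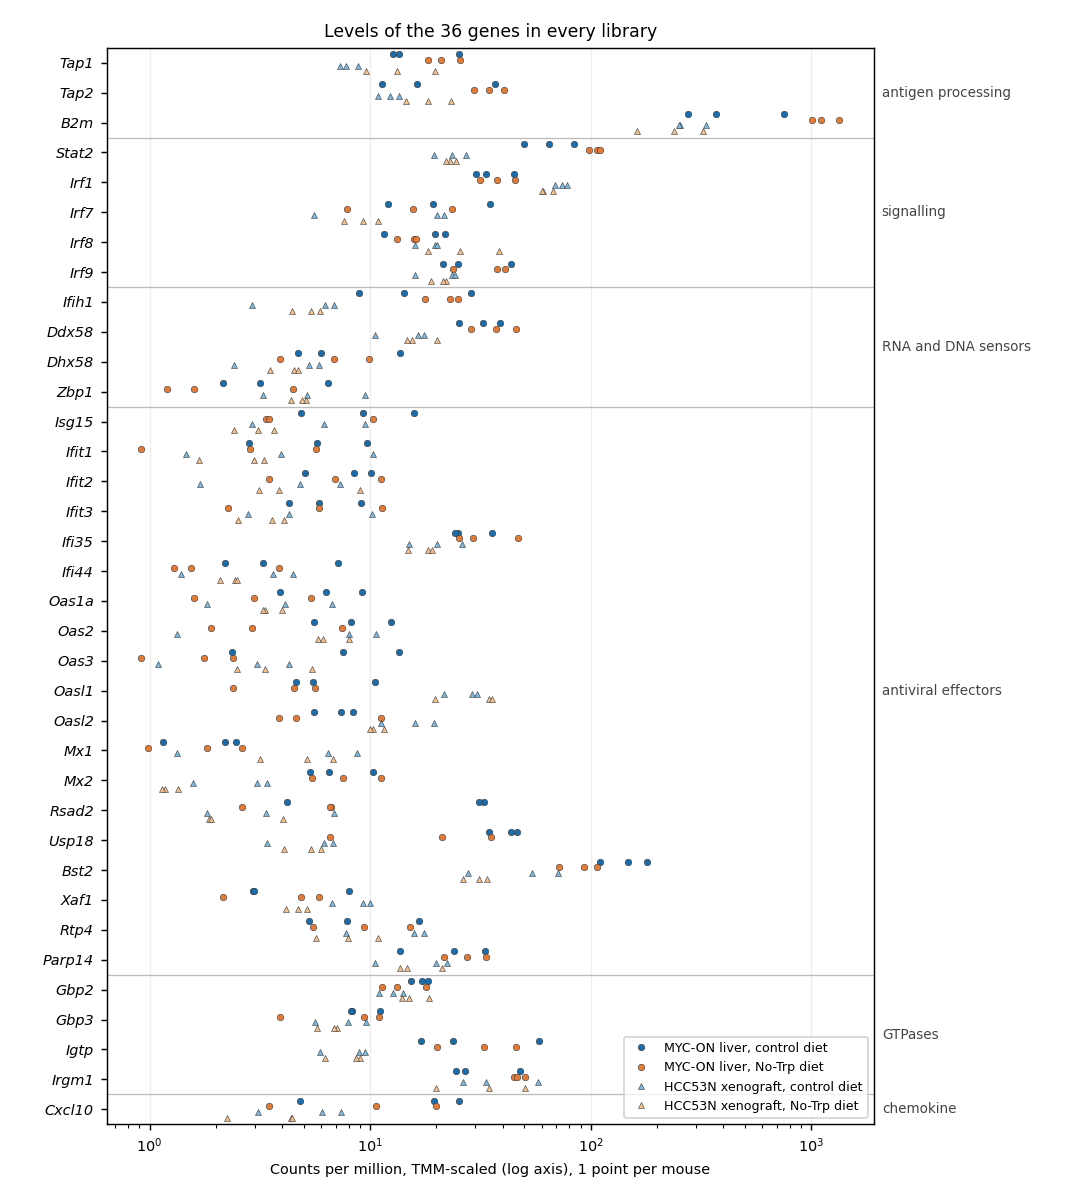
Level of each of the 36 genes (rows, by role) in CPM on a log axis, with 1 point per mouse, circles for MYC-ON livers, triangles for HCC53N xenografts, blue for the control diet and orange for the No-Trp diet. B2m stands at the right with the No-Trp livers between 1013 and 1341 CPM, while most antiviral effectors lie below 20 CPM with the diets mixed.

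Class I antigen processing comes first. Its genes carry cytosolic peptides to the cell surface for CD8 T cells. B2m encodes beta-2 microglobulin, the invariant light chain of every MHC class I molecule, and spans chr2:122147686-122153083 on the + strand. Libraries are given in the order of livers 101, 102 and 103 and 105, 107 and 108, and of xenografts 40, 41 and 43 and 35, 36 and 37, here and in what follows. B2m stood at 369, 752 and 275 CPM in the control livers and at 1107, 1341 and 1013 CPM in the No-Trp livers. In the xenografts it stood at 251, 335 and 255 CPM on the control diet and at 239, 162 and 325 CPM on the No-Trp diet. Every No-Trp liver was above every control liver, and the No-Trp xenografts lay around the control ones. The log2 fold change by diet was 1.34 ± 0.39 (SE, n = 3 and 3) in the livers (adjusted p = 0.0444, edgeR) and -0.23 ± 0.26 in the xenografts (adjusted p = 0.70, edgeR). The difference of both, -1.53 ± 0.49, had an adjusted p of 0.0528 in edgeR. The call in the livers held without mouse 102 (1.85, adjusted p = 0.00616) and was lost without any one of the other 5, where adjusted p in edgeR lay between 0.0665 and 0.143. Over all genes, the number called by diet in the livers was 2337, and leaving out a mouse gave 8 (without 103) to 3207 (without 102). On library totals without composition factors, which shifted the median of all genes in the livers to -0.30, the value was 1.04 (adjusted p = 0.0689, edgeR).

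B2m was also the most abundant of the 36 per length. As CPM per kilobase of merged exon, its mean was 541 ± 294 (SD, n = 3) in the control livers, 1341 ± 197 in the No-Trp livers, 325 ± 55.1 in the control xenografts and 281 ± 94.8 in the No-Trp xenografts. Bst2 followed at 162, 101, 56.5 and 33.8 on that scale, and the remaining 34 had group means below 20.

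Hepatocyte markers moved with B2m. Of 12 of them 11 were tested and 4 were called higher in the No-Trp livers, all 11 had a positive log2 fold change and their median was 1.28. Their summed level was 17915, 51754 and 15655 CPM in the control livers and 73045, 143942 and 58595 CPM in the No-Trp livers. Ass1, also on the list, was at or below 0.25 CPM in every liver. Liver 102, the control with the highest B2m, also had the highest hepatocyte sum of its group. Endothelial markers were called higher for 4 of 12 (sum 153 to 312 CPM against 342 to 576 CPM) and erythroid precursor markers lower for 5 of 7 tested of 11 (60.2 to 600.0 CPM against 16.1 to 27.3 CPM, with Hbb-bs, Hbb-bt and Hba-a1 at 0 in every library). In bulk tissue, fewer cells of a type and less RNA per cell cannot be told apart, and the part of these cell types in the result was not tested.

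Tap1 and Tap2 form the transporter that moves peptides into the endoplasmic reticulum, where they meet class I molecules. Tap1 (chr17:34187553-34197225, + strand) was at 12.7, 25.3 and 13.6 CPM in the control livers and at 21.0, 18.3 and 25.6 CPM in the No-Trp livers. It was at 7.77, 8.83 and 7.34 CPM in the control xenografts and at 13.2, 9.63 and 19.7 CPM in the No-Trp xenografts. Livers overlapped between the diets and xenografts did not. Its log2 fold change by diet was 0.81 ± 0.30 in the xenografts (adjusted p = 0.229, edgeR) and 0.35 ± 0.30 in the livers (adjusted p = 0.409, edgeR). Tap2 showed 12.3, 13.5 and 10.9 CPM in the control xenografts and 18.3, 14.5 and 23.3 CPM in the No-Trp xenografts. In the livers Tap2 ranged from 11.3, 36.8 and 16.3 CPM to 29.5, 40.7 and 34.7 CPM. Again only the xenografts did not overlap, and neither log2 fold change was called (0.60 ± 0.24 in xenografts, adjusted p = 0.256, and 0.73 ± 0.42 in livers, adjusted p = 0.224, edgeR). Of the merged exon of Tap2, 18.5% is shared with genes on the other strand, and the strand setting of the counting is not given in the sources used here.

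Xenograft 37 held the highest Tap1, Tap2 and B2m of its group. It also had the highest sum of 11 T cell markers (22.4 CPM, against 4.87 and 3.04 CPM in xenografts 35 and 36 and 4.32 to 6.16 CPM in the controls) and of 8 dendritic cell markers (67.1 CPM, against 27.3 and 11.9 CPM, and 18.8 to 28.3 CPM in the controls). Of the dendritic markers, Ccr7 had the most reads in xenograft 37, at 982, against 143 and 44 in xenografts 35 and 36. Flt3, Siglech, Zbtb46 and Ccr9 also had more reads there than in xenograft 35, and Xcr1, Clec9a and Itgax had fewer. Among the T cell markers Cd4 had the most reads in xenograft 37, at 292, followed by Lck at 65. Cd3e, which defines T cells, was at 0.76 CPM in xenograft 37 and at 0.05 to 0.36 CPM in the other xenografts. Ptprc, the leukocyte antigen CD45, was at 29.6 CPM there, between 35.4 CPM in xenograft 35 and 27.2 CPM in xenograft 36. Their part in the levels of Tap1 and Tap2 was not tested.

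**Figure D2:**
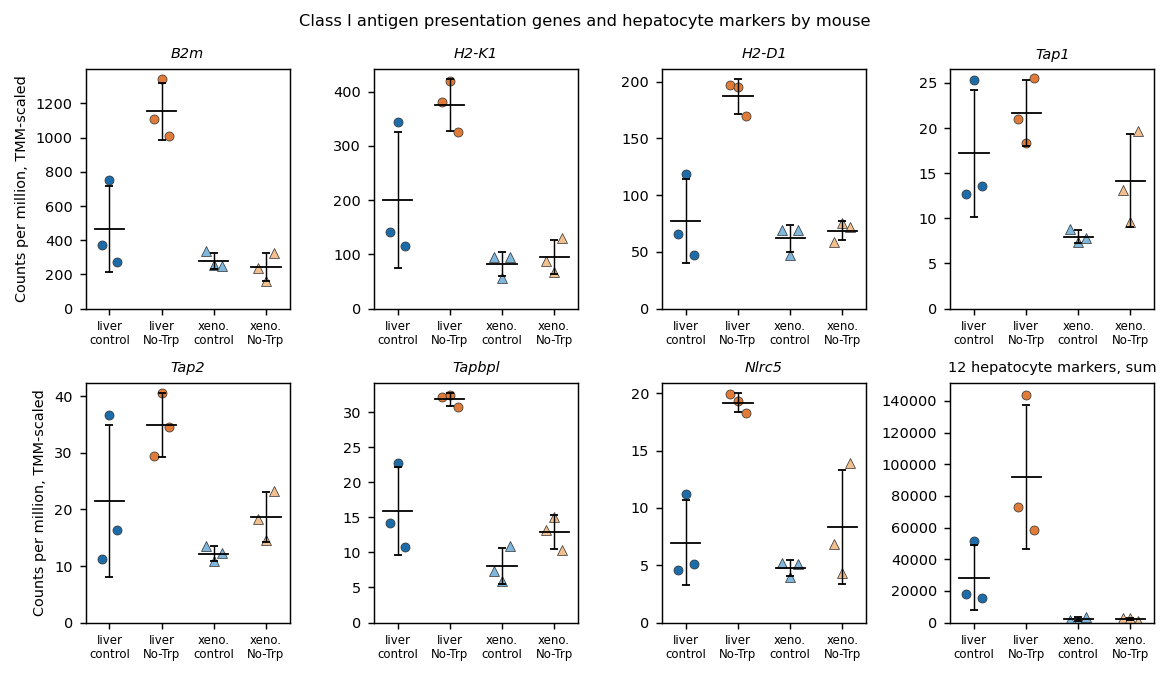
CPM of 7 class I genes and summed CPM of 12 hepatocyte markers in each mouse by group, with 3 points, a mean line and an error bar of 1 SD per group. B2m, H2-D1, Tapbpl and Nlrc5 lie higher in all 3 No-Trp livers than in the control livers, as does the hepatocyte sum, and the xenografts of both diets overlap for B2m, H2-K1 and H2-D1.

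Other class I genes were taken from a list written beside the 36. Of its 20 genes 17 were tested. In the No-Trp livers 3 were called higher and none lower, where 9.28% and 7.27% of all genes were. Of the 17, 12 were positive and 5 negative, with a median log2 fold change of 0.35. H2-D1, a class I heavy chain, was at 66.1, 119 and 47.5 CPM in the control livers and at 197, 196 and 169 CPM in the No-Trp livers (1.30 ± 0.32, adjusted p = 0.0306, edgeR). Nlrc5, the transactivator of class I genes, was at 4.56, 11.2 and 5.08 CPM and at 19.9, 19.4 and 18.3 CPM (1.49 ± 0.36, adjusted p = 0.0294, edgeR). The third was Tapbpl, a peptide editor (1.03 ± 0.28, adjusted p = 0.0373, edgeR). Each of these 3 calls was lost on leaving out 5 of the 6 mice in turn, with adjusted p reaching 0.0959 for H2-D1, 0.108 for Nlrc5 and 0.114 for Tapbpl. On library totals the calls of Nlrc5 and Tapbpl were lost as well, and that of H2-D1 held. H2-K1, the other classical heavy chain, was at 141, 343 and 115 CPM and at 381, 419 and 325 CPM, with overlapping groups and no call (0.94 ± 0.41, adjusted p = 0.125, edgeR). Psmb10, an immunoproteasome subunit of the same list, went the other way, with 4306, 1955 and 3174 reads in the control livers. It had 1126, 547 and 1346 reads in the No-Trp livers and was not called. No gene of the list was called by diet in the xenografts. Reads were aligned to the reference of another strain, whose H2 alleles can differ from those of FVB and NOD. The counts of H2 heavy chains are therefore uncertain between the models. Class II genes had 9 of 9 tested with a positive log2 fold change in the livers (median 0.37) and none called in either model.

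The transcription factors form the next role. STAT2 is the partner through which IRF9 activates genes with an ISRE. Stat2 (chr10:128270559-128292849, + strand) was at 65.1, 84.2 and 50.1 CPM in the control livers and at 98.3, 107 and 111 CPM in the No-Trp livers. It was at 23.4, 27.3 and 19.5 CPM in the control xenografts and at 24.6, 23.03 and 22.2 CPM in the No-Trp xenografts. The livers of the diets did not overlap, and all xenografts lay below all livers. The diet effect in livers was 0.69 ± 0.20 (adjusted p = 0.0454, edgeR), under the threshold on the fold change, and its adjusted p passed 0.05 without any one of mice 101, 103, 105, 107 and 108 (up to 0.143). In the xenografts the effect was -0.03 ± 0.18 (adjusted p = 0.951, edgeR), and the difference between the models was -0.69 ± 0.27 (adjusted p = 0.0952, edgeR).

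Irf1, an early target of interferon signalling, went from 45.0, 30.2 and 33.7 CPM in the control livers to 37.6, 31.4 and 45.4 CPM in the No-Trp livers, which overlapped. It was at 78.4, 74.3 and 69.0 CPM in the control xenografts and at 67.4, 60.8 and 60.2 CPM in the No-Trp xenografts. All 6 xenografts were above all 6 livers, and no diet effect was called (0.09 ± 0.22 in livers and -0.26 ± 0.13 in xenografts). Irf7, the factor that amplifies type I interferon, varied more between the mice of a diet than between diets. Its levels were 12.1, 35.0 and 19.4 CPM and 15.6, 7.84 and 23.5 CPM in the livers, and 21.6, 20.1 and 5.58 CPM and 7.58, 10.8 and 9.30 CPM in the xenografts. Irf8, which marks myeloid and dendritic cells, was at 20.2, 19.7 and 15.96 CPM in the control xenografts and at 25.7, 18.3 and 38.3 CPM in the No-Trp ones, with the highest value in xenograft 37 (0.54 ± 0.28, adjusted p = 0.36, edgeR). Irf9 had diet effects of 0.21 and -0.06 with no call.

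None of the 4 sensors was called by diet. Ifih1 (MDA5), Ddx58 (RIG-I), Dhx58 and the Z-nucleic acid sensor Zbp1 had log2 fold changes from -0.68 to 0.37 in the livers and from -0.34 to 0.15 in the xenografts. Ifih1 was at 8.89, 28.5 and 14.2 CPM in the control livers and at 23.01, 17.7 and 25.0 CPM in the No-Trp livers. In the xenografts it was at 6.89, 6.28 and 2.91 CPM and at 4.43, 5.40 and 5.92 CPM, below every liver. Without liver 102, the control with the highest level, the diet value of Ifih1 in the livers was 0.93 (adjusted p = 0.0566, edgeR), against 0.37 with all 6.

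Among the 19 antiviral effectors, 14 had a negative log2 fold change in the No-Trp livers and 16 in the No-Trp xenografts, with medians of -0.66 and -0.46, and 1 was called in the livers. Of all genes tested, 49.8% were positive in the livers and 49.5% in the xenografts. The effectors moved together from mouse to mouse, as described below, so they are not 19 separate observations of the diet. Neutrophil markers were negative for 8 of 8 tested in the livers (median -1.79, none called; sums 166, 89.4 and 221 CPM against 21.9, 10.7 and 109 CPM) and positive for 6 of 6 in the xenografts (median 1.17, none called; 14.7 to 17.9 CPM against 28.6 to 47.7 CPM). NK cell markers were negative for 6 of 7 tested in the livers (median -0.36, none called). In the xenografts they were positive for 6 of 7 tested (median 1.12, none called). Their part in these values was not tested. The effector called in the livers was Oas3 (chr5:120753098-120777661, - strand), whose product makes the 2-5A signal that activates RNase L. Its levels were 2.35, 13.6 and 7.57 CPM in the control livers and 1.77, 0.919 and 2.39 CPM in the No-Trp livers, from 49, 241 and 189 and from 31, 15 and 31 reads. The groups overlapped, because liver 108 was just above liver 101. The log2 fold change was -2.19 ± 0.66 (adjusted p = 0.0494, edgeR). The call was lost without each of the 6 mice in turn, with values from -2.63 to -1.56 and adjusted p from 0.0518 to 0.133 in edgeR. In the xenografts Oas3 was at 4.30, 3.08 and 1.09 CPM and at 3.33, 5.47 and 2.50 CPM (0.38 ± 0.52, adjusted p = 0.756, edgeR), and the difference between the models was 2.60 ± 0.91 (adjusted p = 0.0703, edgeR).

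Rsad2 (viperin, which makes a chain-terminating nucleotide) had 4.18, 32.7 and 31.2 CPM in the control livers and 6.68, 2.63 and 6.55 CPM in the No-Trp livers. Both high values belong to livers 102 and 103, and liver 101 lay among the No-Trp livers, so the groups overlapped (-2.08 ± 0.76, adjusted p = 0.0828, edgeR). Bst2 (tetherin, which holds budding virus at the cell surface) was at 179, 148 and 110 CPM and at 93.6, 71.9 and 107 CPM. It is the only one of the 36 with every No-Trp liver below every control liver, and it was not called (-0.66 ± 0.23, adjusted p = 0.0716, edgeR). Oas2, another synthetase of the Oas3 kind, had 5.57, 12.4 and 8.21 CPM and 2.91, 1.899 and 7.47 CPM (-1.08 ± 0.55, adjusted p = 0.177, edgeR). Usp18, the protease that removes ISG15 and damps interferon signalling, went from 34.6, 46.5 and 43.8 CPM to 21.2, 6.56 and 35.4 CPM, with liver 108 above liver 101 (-0.96 ± 0.53, adjusted p = 0.208, edgeR).

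In the xenografts the smallest adjusted p of the 36 was that of Xaf1, a proapoptotic partner of XIAP. It was at 9.97, 9.31 and 6.73 CPM on the control diet and at 4.69, 5.17 and 4.14 CPM on the No-Trp diet, without overlap (-0.92 ± 0.27, adjusted p = 0.165, edgeR). Mx2, a dynamin-like GTPase that traps viral particles and is annotated as a polymorphic pseudogene in the mouse, was at 3.08, 3.40 and 1.58 CPM and at 1.17, 1.35 and 1.14 CPM, also without overlap (-1.16 ± 0.43, adjusted p = 0.229, edgeR). In the livers Mx2 had 6.53, 10.4 and 5.36 CPM and 7.54, 5.45 and 11.2 CPM, and the difference between the diet effects of the models was -1.27 ± 0.55 (adjusted p = 0.129, edgeR). These 2 genes were lower in all No-Trp xenografts, and neither passed the adjustment in edgeR. Xaf1 had an adjusted p of 0.0485 in DESeq2, with a log2 fold change under the threshold.

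Isg15, the ubiquitin-like modifier, was at 6.16, 9.51 and 2.91 CPM in the control xenografts and at 2.42, 3.11 and 3.68 CPM in the No-Trp ones (-1.04 ± 0.45, adjusted p = 0.286, edgeR). Ifit1, which binds viral RNA caps, was at 3.96, 10.3 and 1.46 CPM and at 1.68, 3.31 and 2.96 CPM (-1.01 ± 0.65, adjusted p = 0.472, edgeR). Control xenograft 41 was far above the No-Trp xenografts for both, while control xenograft 43 lay among them for Isg15 and below them for Ifit1. Livers had 4.85, 15.8 and 9.33 CPM against 3.37, 3.49 and 10.3 CPM for Isg15, and 2.83, 9.68 and 5.73 CPM against 2.85, 0.919 and 5.70 CPM for Ifit1, overlapping in both. Ifit3, its partner, was at 4.27, 9.07 and 5.89 CPM and 5.88, 2.27 and 11.3 CPM in the livers, and at 4.30, 10.2 and 2.79 CPM and 2.53, 4.05 and 3.595 CPM in the xenografts. Near-identical copies limit the counts of 2 effectors, since 57.6% of the 50-base words of Oas1a occur in other genes (mainly Oas1g and Oas1b) and 51.2% of those of Ifit3 (Ifit3b).

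The GTPases that attack vacuoles of intracellular pathogens had log2 fold changes by diet from -0.24 to 0.54 in the livers and from -0.26 to 0.30 in the xenografts, and none was called. Igtp was at 23.7, 58.1 and 17.1 CPM and 32.8, 20.1 and 45.7 CPM in the livers, and at 9.48, 8.87 and 5.95 CPM and 8.97, 6.25 and 8.63 CPM in the xenografts. Cxcl10, the ligand of CXCR3 on activated T cells, was at 19.4, 4.79 and 25.4 CPM in the control livers and at 10.7, 3.49 and 19.96 CPM in the No-Trp livers. It was at 6.06, 7.39 and 3.09 CPM and at 2.23, 4.39 and 4.44 CPM in the xenografts. Cxcl10 departs from most of the 36 in liver 102, where it was lowest of its group, and its diet groups overlapped in both models (-0.53 ± 0.75 and -0.60 ± 0.43).

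**Figure D3:**
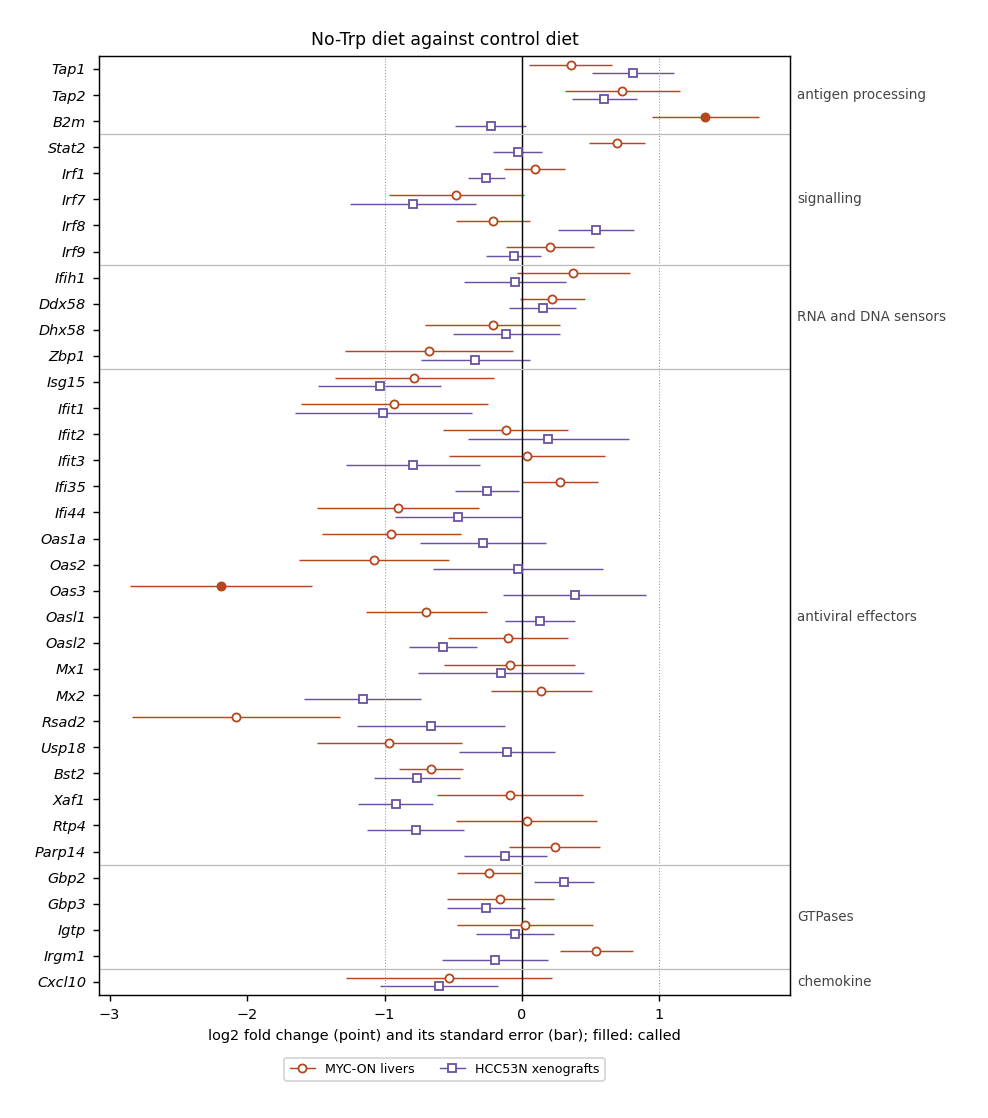
log2 fold change of each of the 36 genes on the No-Trp against the control diet, with its SE as a bar, circles for MYC-ON livers, squares for HCC53N xenografts and filled symbols for called genes. B2m at 1.34 and Oas3 at -2.19 in the livers are the filled symbols, and 16 of 19 antiviral effectors lie left of 0 in the xenografts. Of all genes tested in the xenografts, 49.5% were positive.

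The 36 genes varied between mice of the same group more than most genes did. On the scale of log2(CPM + 1), their median SD was 0.53 in the control livers, where the median of all genes tested was 0.23, and it was 0.54 against 0.24 in the No-Trp livers and 0.54 against 0.23 in the control xenografts. In the No-Trp xenografts it was 0.23 against 0.22. Above the median of all genes lay 33, 30, 31 and 21 of the 36 in these 4 groups.

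These genes also moved together from mouse to mouse. Of the 36, liver 102 was the highest of its group for 31 and liver 101 the lowest for 24, while over all genes tested liver 102 was highest for 35.4% and liver 101 lowest for 36.3%. Among the No-Trp livers, mouse 108 was highest for 32 (all genes 37.1%) and mouse 107 lowest for 30 (all genes 39.5%). Control xenograft 43 was lowest for 35 of the 36 (all genes 32.9%), and xenografts 41 and 40 shared the highest values with 19 and 17. For the 19 antiviral effectors alone, liver 102 was highest for 17, liver 107 lowest for 18, liver 108 highest for 18 and xenograft 43 lowest for 19. The No-Trp xenografts showed no such order, with 12, 11 and 13 highest values in mice 35, 36 and 37.

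Depth and cell markers also differed between those mice. Xenograft 43 had the fewest reads on genes (14660963) and the largest share not on genes (39.4%), and liver 101 the largest Rn45s share. The summed macrophage markers were 803, 1175 and 1091 CPM in livers 101, 102 and 103 and 1240, 579 and 1170 CPM in livers 105, 107 and 108, with liver 107 lowest of all, and 990, 662 and 735 CPM in xenografts 41, 43 and 40. Hepatocyte markers were highest in liver 107, the mouse in which most of the 36 genes were lowest. The part of these differences in the order of the mice was not tested.

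**Figure D4:**
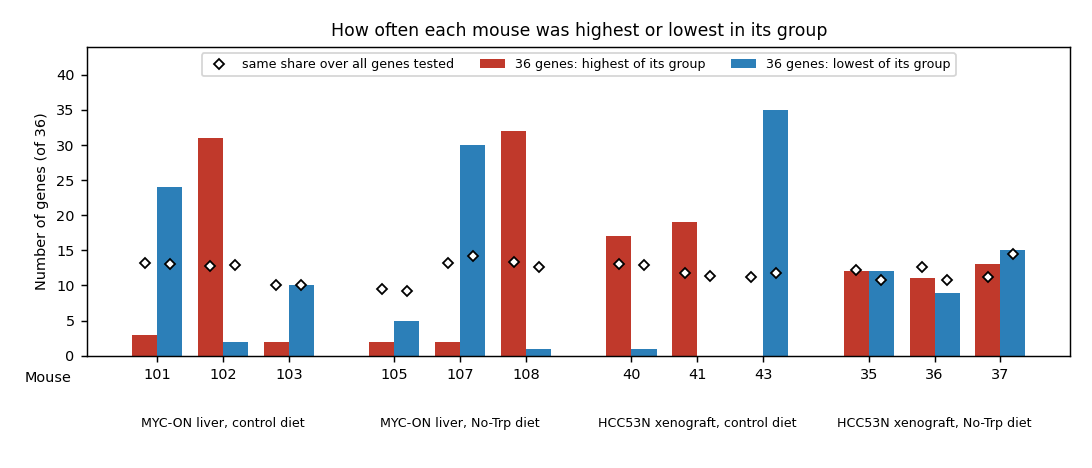
Number of the 36 genes for which each mouse had the highest (red) or lowest (blue) CPM of the 3 mice in its group, with diamonds for the same share over all genes tested, scaled to 36. Livers 102 and 108 hold 31 and 32 highest values, liver 107 and xenograft 43 hold 30 and 35 lowest values, and the No-Trp xenografts are close to the diamonds.

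Between the models 12 of the 36 genes were called on each diet. On the control diet 3 of the 36 were called higher in the xenografts (Irf1, Oasl1 and Oasl2), where 22.3% of all genes were, and 9 lower (Stat2, Ifih1, Ddx58, Mx2, Rsad2, Usp18, Bst2, Igtp and Tap1), where 20.6% were. On the No-Trp diet 2 were called higher (Oasl1 and Mx1), where 23.1% of all genes were, and 10 lower (Stat2, Ifi35, Ifih1, Ddx58, Mx2, Usp18, Bst2, Igtp, B2m and Cxcl10), where 20.7% were. Models did not overlap for 12 of the 36 on the control diet (66.2% of all genes) and for 17 on the No-Trp diet (68.1% of all genes). The medians were -0.52 and -0.74 against -0.02 and 0.06 for all genes. On library totals the median of all genes in the No-Trp comparison moved to 0.67 and that of the 36 to -0.16.

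Lower in all 6 xenografts than in all 6 livers were Stat2, Ifih1, Ddx58, Mx2, Bst2 and Igtp. Stat2 differed by -1.53 ± 0.23 on the control diet (adjusted p = 0.000887, edgeR) and by -2.27 ± 0.15 on the No-Trp diet (adjusted p = 4.61e-06, edgeR). Ifih1 differed by -1.71 ± 0.50 and -2.16 ± 0.25, Mx2 by -1.48 ± 0.42 and -2.81 ± 0.38, Igtp by -2.05 ± 0.48 and -2.14 ± 0.33, and Ddx58 by -1.15 ± 0.26 and -1.24 ± 0.23. Bst2, at 71.2, 54.3 and 27.7 CPM in the control xenografts and 26.4, 31.1 and 34.0 CPM in the No-Trp xenografts, differed by -1.54 ± 0.35 (adjusted p = 0.00668, edgeR) and -1.67 ± 0.20 (adjusted p = 0.000132, edgeR). With the control livers at 110 to 179 CPM and the No-Trp livers at 71.9 to 107 CPM, the lowest liver and the highest xenograft were close.

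Usp18 showed the largest fall of the 36 on the control diet. It was at 6.79, 6.16 and 3.40 CPM in the control xenografts and at 4.06, 5.98 and 5.37 CPM in the No-Trp xenografts, below the livers of the same diet in each case (-2.95 ± 0.30, adjusted p = 0.000114, and -2.13 ± 0.53, adjusted p = 0.00854, edgeR). Rsad2, at 3.37, 6.88 and 1.82 CPM and at 1.87, 4.02 and 1.903 CPM in the xenografts, was called on the control diet (-2.51 ± 0.83, adjusted p = 0.0355, edgeR), although liver 101 at 4.18 CPM lay among the xenografts. B2m was called on the No-Trp diet (-2.35 ± 0.29, adjusted p = 0.000183, edgeR) and not on the control diet (-0.76 ± 0.36, adjusted p = 0.109, edgeR), and Tap1 on the control diet (-1.13 ± 0.32, adjusted p = 0.0169, edgeR) and not on the No-Trp diet (-0.70 ± 0.29, adjusted p = 0.0681, edgeR). That a call stood on a single diet does not show that the models differ by diet, and the interaction above called neither in edgeR, though it called B2m in DESeq2.

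Higher in all xenografts than in all livers were Irf1 and Oasl1. Oasl1, an OAS-like protein without synthetase activity that restrains Irf7 translation, was at 4.61, 10.5 and 5.48 CPM and 4.51, 2.39 and 5.62 CPM in the livers. In the xenografts it was at 28.9, 30.4 and 21.5 CPM and at 19.6, 34.8 and 35.6 CPM. The lowest xenograft, at 19.6 CPM, lay well above the highest liver, at 10.5 CPM (1.95 ± 0.35, adjusted p = 0.00214, and 2.75 ± 0.38, adjusted p = 0.000312, edgeR). Irf1 differed by 1.00 ± 0.18 on the control diet (adjusted p = 0.00202, edgeR) and by 0.63 ± 0.18 on the No-Trp diet (adjusted p = 0.0155, edgeR), the latter under the threshold on the fold change. Oasl2, its neighbour on chromosome 5, had 5.57, 7.38 and 8.37 CPM and 4.62, 3.86 and 11.2 CPM in the livers and 15.98, 19.5 and 11.2 CPM and 11.6, 10.3 and 10.02 CPM in the xenografts, with a call on the control diet alone (1.10 ± 0.30, adjusted p = 0.0135, edgeR). Mx1 was at 1.15, 2.48 and 2.20 CPM and 1.83, 0.9803 and 2.62 CPM in the livers and at 8.70, 6.44 and 1.33 CPM and 5.16, 6.79 and 3.17 CPM in the xenografts, and was called on the No-Trp diet (1.39 ± 0.47, adjusted p = 0.0312, edgeR).

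Over the leave-one-out fits, Stat2, Bst2, Igtp, Usp18 and Oasl1 kept their calls between the models on both diets without any one mouse. Rsad2 on the control diet was called in 2 of 6 such fits, Irf1 in 3, Ifih1, Ddx58, Oasl2 and Tap1 in 4 and Mx2 in 5, and on the No-Trp diet Cxcl10 was called in 1, Mx1 in 2 and Ifi35 in 4. Hepatocyte markers fell in the xenografts for 10 of 11 tested on the control diet and for 11 of 11 on the No-Trp diet, with sums of 1214 to 3453 CPM. Clec4f, which marks Kupffer cells, was at 76.3 to 206 CPM in the livers and at 0.465 to 1.15 CPM in the xenografts. Of 12 macrophage markers, Clec4f among them, 4 were positive and 8 negative on the control diet, and 5 and 7 on the No-Trp diet. Their summed level was 657 to 1033 CPM in the xenografts and 579 to 1240 CPM in the livers. The part of these cell types in the differences between the models was not tested.

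**Figure D5:**
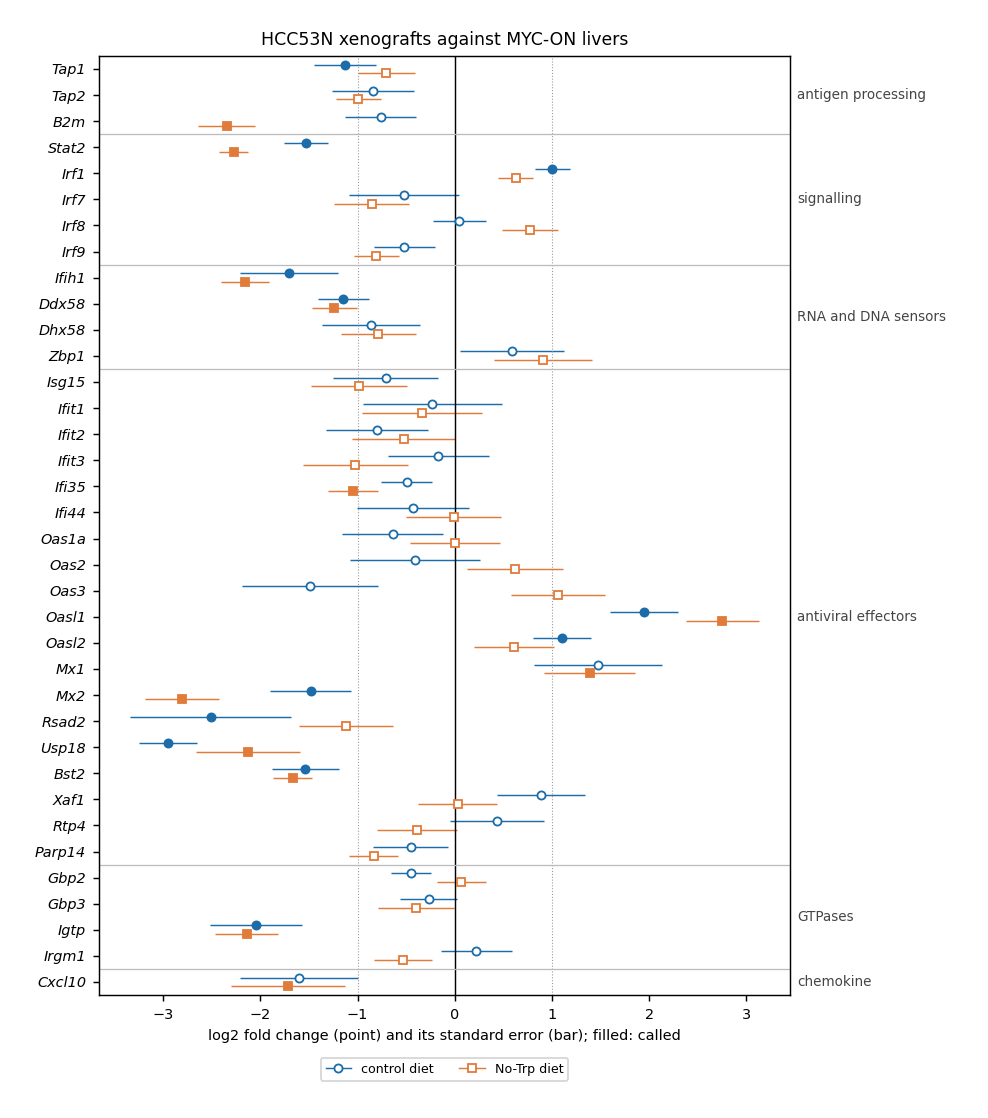
log2 fold change of each of the 36 genes in HCC53N xenografts against MYC-ON livers, with its SE as a bar, circles for the control diet, squares for the No-Trp diet and filled symbols for called genes. Filled symbols number 12 on each diet, most of them left of 0, with Oasl1 at 1.95 and 2.75 on the right.

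Upstream of the 36 genes, interferons themselves were near absent. Of 21 ligand genes none passed the filter in the livers, where Ifng was at 0 to 0.11 CPM and Ifnb1 at 0 to 0.08 CPM. Ifng in the xenografts was at 1.08, 0.959 and 0.0607 CPM on the control diet and at 0.220, 1.52 and 1.31 CPM on the No-Trp diet (0.49 ± 0.90, adjusted p = 0.825, edgeR). Low RNA of a ligand in whole tissue leaves its protein unmeasured. The receptor genes were expressed in every library, and none of 6 was called by diet in either model. Ifngr1, Ifngr2 and Ifnlr1 were higher in the xenografts on both diets, with Ifngr2 close to the threshold on No-Trp (1.00 ± 0.19, and 0.84 to 1.00 without any one library other than xenograft 37). Ifngr1 was at 37.9 to 46.8 CPM in the livers and at 81.7 to 144 CPM in the xenografts (1.63 ± 0.15 on the control diet, adjusted p = 6.89e-05, and 1.14 ± 0.17 on the No-Trp diet, adjusted p = 0.000483, edgeR). Ifngr2 was at 29.3 to 36.6 CPM in the livers and at 52.6 to 92.8 CPM in the xenografts, and Ifnlr1, of the type III receptor, at 0.551 to 2.62 CPM and at 10.9 to 19.5 CPM. Ifnar1 and Ifnar2, the type I receptor chains, were not called in any comparison. Ifnar1 was at 48.7 to 58.9 CPM in the control livers, 56.2 to 84.2 CPM in the No-Trp livers, 66.4 to 76.9 CPM in the control xenografts and 62.2 to 87.5 CPM in the No-Trp xenografts. Ifnar2 was at 38.6 to 57.5, 54.3 to 69.5, 36.1 to 47.4 and 36.8 to 41.0 CPM in these groups, and Il10rb, which type III interferons share with IL-10, at 34.2 to 44.7, 14.2 to 25.7, 24.6 to 35.7 and 24.8 to 37.9 CPM.

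Of 13 JAK, STAT and feedback genes, 4 were called higher in control xenografts than in control livers (all genes 22.3%). On that diet 1 was called lower (all genes 20.6%). With No-Trp 3 were called higher (all genes 23.1%) and 1 lower (all genes 20.7%). Socs1 and Socs3, which inhibit JAK kinases, were higher by 2.87 and 2.96 on the control diet and by 2.94 and 2.95 on the No-Trp diet.

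Further interferon-stimulated genes outside the 36 split in both directions. Of 52 listed, 50 were tested in the livers, where the No-Trp diet raised 4 and lowered 3 past both thresholds, with 25 positive and 25 negative, where 9.28% and 7.27% of all genes were called. Nmi, a partner of STAT proteins, had the largest rise (1.49 ± 0.40, adjusted p = 0.0366, edgeR) and Slfn9, of the Schlafen family, the largest fall (-2.49 ± 0.53, adjusted p = 0.0236, edgeR). Nmi was at 4.95, 9.12 and 3.92 CPM and at 13.3, 12.7 and 23.7 CPM, and Slfn9 at 6.29, 24.9 and 17.6 CPM and at 2.63, 2.08 and 3.85 CPM, without overlap in either. The call of Nmi was lost without any one mouse other than 102 (adjusted p from 0.0534 to 0.124), on library totals and with resubmission as a covariate, and that of Slfn9 without mouse 103, 105 or 107 (adjusted p from 0.0581 to 0.09). Among 19 genes of nucleic acid sensing, Tlr3, the receptor of double-stranded RNA, was called higher (1.07 ± 0.31, adjusted p = 0.0434, edgeR), a call lost without any one mouse other than 102 (adjusted p from 0.0776 to 0.126), on library totals and with no filter. None of the 6 receptors, 13 JAK and STAT genes, 13 other GTPases and 6 chemokines was called in the livers. In the xenografts no gene of any of these lists was called by diet. Between the models, 4 of 17 class I genes tested were lower in the control xenografts (all genes 20.6%) and 8 in the No-Trp xenografts (all genes 20.7%), with H2-K1 lower on both (-1.30 ± 0.45, adjusted p = 0.0406, and -2.08 ± 0.26, adjusted p = 0.000193, edgeR) and H2-D1 on the No-Trp diet (-1.54 ± 0.16, adjusted p = 7.48e-05, edgeR). The H2-K1 call on the control diet was lost without liver 102 (-0.66, adjusted p = 0.0519, edgeR), without any one of xenografts 40, 41 and 43 (adjusted p from 0.0811 to 0.123), with no filter (adjusted p = 0.0662) and with resubmission as a covariate (adjusted p = 0.09). Of the class II genes, 5 of 9 tested were higher in the control xenografts (all genes 22.3%) and 2 of 8 in the No-Trp ones (all genes 23.1%). H2-Eb1, a class II beta chain, led them at 2.71 ± 0.41 and 2.16 ± 0.35.

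In the remaining lists the model comparisons were led by other genes. Gbp11, a guanylate-binding GTPase, had the largest fall of the 13 other GTPases (-5.24 ± 1.27 on the control diet and -6.62 ± 0.27 on No-Trp), and Gbp9 was the single rise (1.31 ± 0.28 and 1.33 ± 0.35). On the control diet Gbp11 had 636 reads in liver 102 against 66 and 62 in livers 101 and 103, and its value was -2.96 without liver 102 (adjusted p = 0.00236, edgeR). That call was lost without any one of xenografts 40, 41 and 43 (adjusted p from 0.0512 to 0.0539). Among the chemokines Ccl7 led the control diet (2.96 ± 0.49) and Ccl5 the No-Trp diet (3.66 ± 1.18), where Cxcl11 fell (-1.47 ± 0.42). Ccl5 had 581 reads in xenograft 37 against 45 and 36 in xenografts 35 and 36, and its value was 0.98 without xenograft 37 (adjusted p = 0.151, edgeR). Its call was also lost without any one of livers 105, 107 and 108 (adjusted p from 0.0627 to 0.11), with no filter and with resubmission as a covariate, and that of Cxcl11 without liver 107 or xenograft 35 and on library totals (adjusted p from 0.0534 to 0.123). Of 19 genes of nucleic acid sensing, 4 were called higher on the control diet (all genes 22.3%) and 3 lower (all genes 20.6%). On No-Trp 5 were higher (all genes 23.1%) and 4 lower (all genes 20.7%). Tmem173 (STING) led the rises on the control diet (2.34 ± 0.28) and Ifi204 those on No-Trp (2.15 ± 0.27). The largest falls were Tlr7 on the control diet (-1.20 ± 0.40) and Trim25 on No-Trp (-1.29 ± 0.16). The Tlr7 call was lost without liver 102 or 103 or xenograft 40 or 43, on library totals and with resubmission as a covariate (adjusted p from 0.0576 to 0.135). Psmb10, an immunoproteasome subunit, had the largest fall of the class I list on the control diet (-1.63 ± 0.32). Of the other interferon-stimulated genes Ifitm1, which hinders viral entry, led the rises on both diets (5.55 ± 0.31 and 3.48 ± 0.30), and the largest falls were Ly6c2 (-2.94 ± 0.50) and Ube2l6, the conjugating enzyme for ISG15 (-4.11 ± 0.33).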

How the data were processed

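Polyadenylated RNA of 12 mice was sequenced. Per the labels and the study's methods, the authors used Trim Galore for trimming, STAR 2.7.2b for alignment to mm10 and HTSeq for counting per gene, so the deposited values are whole read counts, without normalization. The strand setting and the rule for overlapping genes are not given in the sources used here. Lines of unassigned reads (24.7% to 39.4% of a library) did not enter library sizes or tests.

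The counts were tested with edgeR 4.0.16 (R 4.3.3), with TMM scaling, the filterByExpr filter and robust fits ( glmQLFit and glmQLFTest, two-sided), the diets within each model, the models within each diet, and the interaction over all 12 libraries. Adjusted p-values are Benjamini-Hochberg over all genes tested. The study's methods used DESeq2, which is an alternative here, and the limits they name, an adjusted p up to 0.05 with a log2 fold change of 1 or more in either direction, were kept. An SE is the log2 fold change divided by the square root of F. The p-values measure the spread between mice, 3 per group. Replicate libraries differed by 36.8 to 291 times the counting noise, so none was deposited more than once within its group. Libraries of different groups were not compared in this way. CPM are counts per 1000000 on TMM-scaled library sizes over all 12 libraries. The alternatives were DESeq2 1.42.0, RLE factors, library totals, no filter, a minimum of 10 counts, a covariate for resubmission, a joint fit of the 12 libraries, the adjusted p alone, omission of Rn45s, and leaving out each library. Scripts were tested on simulated counts.

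The 36 genes, the lists of other genes and all tests were chosen with earlier results of these data known. Values in every library are given for members called by diet or in the interaction, for the 3 largest and 3 smallest log2 fold changes and the 3 smallest adjusted p of each comparison, and for B2m, Tap1, Stat2, Irf1, Irf7 and Cxcl10, while of the other lists the receptors, Ifnb1, Ifng, H2-K1, H2-D1 and the most changed called genes are given. Other values were chosen after they were seen. Promoter letters come from RefSeq (GRCm38.p6) and gene models from GENCODE M21. Some results are not reported here.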

Additional observations from a re-analysis of the deposited data

Results flagged for a closer look

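Of 135 tested interferon pathway genes outside the 36, 9 had a diet effect that differed between livers and xenografts in the interaction test. That is 6.67%, against 12.7% of all genes tested. None of the 36 was called in the same test. The values are the effect in xenografts minus that in livers, with edgeR's adjusted p. Negative were Ifitm1 at -2.02 (adjusted p = 0.0129), Ube2l6 at -1.43 (adjusted p = 0.0499), Trafd1 at -1.41 (adjusted p = 0.0154) and Irf2bp2 at -1.05 (adjusted p = 0.0235). Positive were Ifi30 at 1.03 (adjusted p = 0.0301), Pnpt1 at 1.40 (adjusted p = 0.0125), Isg20 at 1.86 (adjusted p = 0.0228), Ly6c2 at 2.72 (adjusted p = 0.0456) and Slfn9 at 3.96 (adjusted p = 0.00593).

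Slfn9 fell in the livers by 2.49 and had 1.44 in the xenografts (adjusted p = 0.0633, edgeR), where it was at 6.26, 7.55 and 3.94 CPM in control xenografts 40, 41 and 43 and at 15.2, 17.9 and 15.9 CPM in No-Trp xenografts 35, 36 and 37. Ifitm1 rose in the livers by 1.04 and had -1.01 in the xenografts (adjusted p = 0.227, edgeR). It was at 5.69 to 5.97 CPM in the control livers and 11.03 to 12.6 CPM in the No-Trp livers, and at 196 to 397 CPM in the control xenografts and 81.6 to 187 CPM in the No-Trp xenografts. Without each of the 12 libraries in turn, Slfn9, Ifitm1, Trafd1 and Pnpt1 kept their interaction calls, and Ly6c2 and Ube2l6 lost theirs in 10 of 12 such fits each. Ifi30 lost its call in 5 of these fits, Irf2bp2 in 4 and Isg20 in 3. The call of Ifi30 was also lost with DESeq2 and RLE factors. Those of Irf2bp2 and Ube2l6 were also lost on library totals and with resubmission as a covariate, and that of Ube2l6 with no filter.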

How the results depend on the processing

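No result changed its direction past the threshold under any alternative. In the livers, where 1 of the 36 genes was called higher and 1 lower, the higher count was 0 on library totals and 2 with no threshold on the fold change, and the lower count was 2 with DESeq2 and with one fit over all libraries, and 0 with no filter and with resubmission as a covariate. Leaving out each mouse gave 0 to 2 higher (0 without any of 101, 103, 105, 107 and 108, and 2 without 102) and 0 to 1 lower (0 without 102, 103, 105 or 107), with medians from -0.44 to 0.18. The xenografts had 0 called by diet under every alternative, with medians from -0.42 to -0.03 on leaving out a mouse. In the interaction (0 in the main test) the higher count was 1 with DESeq2 and on library totals, and the lower count 1 with DESeq2, with RLE factors, with at least 10 counts and with Rn45s left out. Leaving out a mouse gave 0 to 1 higher (1 without liver 101) and 0 to 1 lower (1 without liver 102 or xenograft 37), with medians from -0.36 to 0.22. Between the models on the control diet (3 higher, 9 lower), leaving out a mouse gave 2 to 4 higher and 5 to 11 lower, with 5 without liver 102 or without xenograft 43, and medians from -0.91 (without xenograft 41) to -0.22. On the No-Trp diet (2 higher, 10 lower, median -0.74) the higher count was 7 on library totals, 5 with resubmission as a covariate, 1 with one fit and 4 with no threshold on the fold change, and the median was -0.16 on library totals. Leaving out a mouse there gave 1 to 5 higher (1 without liver 105 or 107 or xenograft 35 or 36, 5 without liver 108), 9 to 16 lower (16 without liver 107) and medians from -0.88 to -0.47. Library totals moved the median of all genes from -0.00 to -0.30 in the livers, from -0.00 to 0.11 in the xenografts, from 0.03 to 0.41 in the interaction, from -0.02 to 0.16 between the models on the control diet and from 0.06 to 0.67 on the No-Trp diet. The share of all calls that were higher went from 56.1% to 32.3%, from 67.9% to 84.5%, from 52.7% to 80.7%, from 52.0% to 58.6% and from 52.8% to 73.6% in these comparisons. Why these counts moved was not tested. No paired analysis was possible because no 2 groups share mouse numbers. Over all genes, the xenograft diet comparison called 53, and 380 with DESeq2, 82 with RLE factors, 118 with no filter, 85 with Rn45s left out, 15 with at least 10 counts, 23 with one fit and 4 with resubmission as a covariate, and 9 (without xenograft 43) to 78 on leaving out a mouse. In the livers 2337 were called, 3570 on the adjusted p alone and 8 (without 103) to 3207 on leaving out a mouse. In the interaction 1966 were called, and 916 (without liver 103) to 2571 on leaving out a mouse. Genes under 20 reads in a library (Ifit1, Oas3 and Mx1 in liver 107 and Oas3 in xenograft 43) rest on few counts, and 3 mice per group limit every comparison.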
